A study of Mus musculus with 4 samples.

Results

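Antiviral interferon-stimulated genes are the genes that a cell switches on after it senses an interferon, and they were followed here across 4 conditions of regulatory T (Treg) cells from mouse visceral adipose tissue (VAT). The members were 32 genes named by symbol, and 31 of them had a row among the 32285 genes of both count matrices. Mx1 was not analysed here. The list names genes and sets no threshold on a measured value, and it was drawn up with earlier results of these data known.

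Treg cells express Foxp3 and restrain other immune cells, and in visceral fat many of them carry ST2, the interleukin-33 receptor encoded by Il1rl1. They were profiled by droplet single-cell RNA sequencing of the 5′ ends of transcripts, in which each captured molecule carries a unique molecular identifier (UMI). Each of 2 separate experiments mixed the sorted live CD3+ CD4+ Foxp3+ cells of 2 conditions at equal numbers, and an antibody-borne oligonucleotide (a hashtag) recorded the condition of each cell. The first experiment compared male Foxp3YFP-cre Srebf2WT/WT mice (WT, 4 mice) with Foxp3YFP-cre Srebf2flox/flox mice (KO, 4 mice), all 25 weeks old and at steady state. All of these mice carried the Cre recombinase that is driven by Foxp3, and the floxed Srebf2 gene is therefore deleted only where Foxp3 is or was expressed. The second compared male Foxp3thy1.1 PpargTdt mice on normal chow (NCD, 5 mice) with the same line on a high-fat diet (HFD, 5 mice) for 22 weeks, at 23 to 27 weeks of age. The cells of the mice of a condition carried a single hashtag and cannot be traced to single mice, so there was 1 pooled sample per condition, no replicate and no test. The 2 experiments were compared only within themselves.

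The cells described were 3490 WT, 3956 KO, 4938 NCD and 4512 HFD cells, with 14010241, 16444262, 22200627 and 18543516 summed UMIs and medians of 3590, 3640, 3989 and 3194 UMIs per cell. Levels below are UMIs per 1000000 summed UMIs of a condition (CPM), and all intervals are exact 95% intervals that cover counting error only, without the spread between mice or sorts. Srebf2, the floxed gene, was at 65.7 CPM for WT and 3.95 CPM for KO, in the direction the labels give. All 7 Treg markers were detected in each condition, and 55.4% (WT), 56.8% (KO), 53.8% (NCD) and 40.5% (HFD) of the cells had a Foxp3 UMI. The markers were not equal between the diets. Il2ra stood at 656 CPM for NCD and 193 for HFD, and Foxp3 at 213 and 162. Ikzf2, Ctla4, Cd3e and Cd4 were higher in HFD, Tnfrsf18 stood at 427 and 423 CPM, and all 7 summed to 3881 and 4032. The share of cells with an Il1rl1 UMI was 71.0% (69.5 to 72.5) for WT and 58.7% (57.1 to 60.2) for KO. It was 78.1% (76.9 to 79.2) for NCD and 17.6% (16.5 to 18.7) for HFD. Droplets with a UMI of Cd79a, a B cell gene, were left out of the cells described, and an Il1rl1 UMI was found in 42.9%, 35.9%, 48.1% and 13.5% of them, at medians of 6063, 5793, 7488 and 3929 UMIs. The Il1rl1 share of HFD cells lay close to that of their Cd79a droplets, whereas the other 3 shares lay well above theirs. These droplets were deeper than the cells described and may include doublets. Their Il1rl1 share also differed between NCD and HFD within 1 experiment, so it does not measure a background. The 2 experiments shared 135 cell barcodes.

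Type I interferons bind the receptor formed by IFNAR1 and IFNAR2, whose kinases JAK1 and TYK2 phosphorylate STAT proteins. STAT proteins and IRF9 then form a complex that binds the interferon-stimulated response element (ISRE) in front of its target genes, whereas interferon gamma acts mainly through STAT pairs that bind the gamma-activated site (GAS). The products of the target genes block viral RNA, proteins and release, sense foreign nucleic acid, or feed back on the pathway itself.

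Windows around the transcription start sites show how far the members share these elements. RefSeq windows on GRCm38.p6, from 250 bases before to 50 bases after each start site, were at hand for 25 of the 31 members and made up 34 windows, since some genes have several starts. Rtp4, Usp18, Zbp1, Ifi27l2a, Parp14 and Dhx58 were not among them. The ISRE core was searched as GAAANNGAA or, on the other strand, TTCNNTTTC, and the GAS as TTCNNNGAA, which reads the same on both strands. An ISRE core lay in 19 of the 34 windows of members (55.9%) and in 2812 of all 32851 windows of the table (8.56%). Counted by gene, 17 of 25 members (68.0%) and 9.76% of all genes held at least 1 core. The core was as frequent among the members counted below as higher in the high-fat diet (5 of 9 windows, 55.6%) as among those closer to equal levels (10 of 18 windows, 55.6%). These windows covered only 7 of the 11 higher and 11 of the 13 closer members. Rtp4, Usp18, Zbp1 and Ifi27l2a were the higher members without a window. At least 2 cores, which may overlap, lay in 10 windows of members (29.4%) and in 0.624% of all windows. A GAS lay in 6 windows of members (17.6%) and in 8.30% of all windows, and in the Bst2 window it overlapped an ISRE core. These matches describe letters and are not shown to be bound.

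The windows of Oas1a, Ifih1, Ifit2 and Ifi213, members with large diet ratios, follow, together with Isg15 for its run of cores and Ifi206 as the close relative of Ifi213 that differed in the other direction, both of these chosen after their values were seen. Capitals mark the ISRE cores and GAS letters, and each window runs 5′ to 3′ on the gene's strand.
Oas1a: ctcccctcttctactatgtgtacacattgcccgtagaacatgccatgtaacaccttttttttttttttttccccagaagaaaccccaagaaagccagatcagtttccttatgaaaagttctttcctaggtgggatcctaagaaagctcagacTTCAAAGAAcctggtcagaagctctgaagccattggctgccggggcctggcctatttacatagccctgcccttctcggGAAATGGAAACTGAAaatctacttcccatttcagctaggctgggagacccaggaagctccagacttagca
Ifih1: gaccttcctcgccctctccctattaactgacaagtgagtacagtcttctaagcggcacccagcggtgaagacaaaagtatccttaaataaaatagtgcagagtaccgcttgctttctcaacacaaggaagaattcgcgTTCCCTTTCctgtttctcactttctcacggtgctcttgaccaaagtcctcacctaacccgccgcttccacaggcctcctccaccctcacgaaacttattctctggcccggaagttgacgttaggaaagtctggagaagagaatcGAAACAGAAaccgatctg
Ifit2: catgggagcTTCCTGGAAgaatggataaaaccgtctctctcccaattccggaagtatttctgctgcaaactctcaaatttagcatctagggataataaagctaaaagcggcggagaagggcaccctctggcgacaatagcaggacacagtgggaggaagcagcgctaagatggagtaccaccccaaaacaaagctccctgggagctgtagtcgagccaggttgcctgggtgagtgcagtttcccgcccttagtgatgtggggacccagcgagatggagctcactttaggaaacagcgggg
Ifi213: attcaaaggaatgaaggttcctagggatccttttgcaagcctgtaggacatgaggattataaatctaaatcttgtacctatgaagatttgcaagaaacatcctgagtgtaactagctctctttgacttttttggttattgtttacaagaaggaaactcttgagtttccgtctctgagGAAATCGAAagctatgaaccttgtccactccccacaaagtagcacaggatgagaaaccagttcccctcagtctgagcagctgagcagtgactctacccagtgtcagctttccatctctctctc
Ifi206: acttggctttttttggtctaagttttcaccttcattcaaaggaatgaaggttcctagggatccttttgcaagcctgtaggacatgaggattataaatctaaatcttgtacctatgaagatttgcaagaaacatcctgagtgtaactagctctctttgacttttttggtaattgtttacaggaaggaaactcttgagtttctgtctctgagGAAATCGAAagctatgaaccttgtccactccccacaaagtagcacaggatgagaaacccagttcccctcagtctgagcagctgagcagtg
Isg15: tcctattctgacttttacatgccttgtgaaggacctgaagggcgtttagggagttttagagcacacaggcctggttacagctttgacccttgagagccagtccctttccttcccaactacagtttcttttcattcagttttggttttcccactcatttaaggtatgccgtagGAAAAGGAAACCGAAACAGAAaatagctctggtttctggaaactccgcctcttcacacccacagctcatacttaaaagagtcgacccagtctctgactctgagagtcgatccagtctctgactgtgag
The Oas1a window lies at chr5:120907476-120907775 on the minus strand and holds overlapping cores whose first bases lie 20 and 14 bases before the start site, besides a GAS 98 bases before it. The Ifih1 window at chr2:62646206-62646505 on the minus strand holds a core 112 bases before the start and another beginning at base 33 after it. The Ifit2 window shown, at chr19:34550444-34550743 on the plus strand, holds no ISRE core of this spelling, and its only capitals are a GAS 241 bases before the start. The second Ifit2 window held neither motif, and so did both windows of Irf9, which was also higher in HFD and is not printed. The Isg15 window at chr4:156200769-156201068 on the minus strand holds 3 overlapping cores, 78, 72 and 66 bases before the start. Ifi213 at chr1:173599223-173599522 on the minus strand and Ifi206 at chr1:173491269-173491568 on the minus strand share an identical run of 135 bases, and each holds 1 core with the same letters, 73 and 40 bases before its start.

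Summed over all members, the level was higher in HFD than in NCD and slightly higher in KO than in WT. The summed level of the 31 members was 1414 CPM (1398 to 1429) for NCD and 1950 CPM (1930 to 1970) for HFD, a log2 ratio of 0.46 (0.44 to 0.49). It was 1269 CPM (1250 to 1287) for WT and 1323 CPM (1306 to 1341) for KO, a log2 ratio of 0.06 (0.03 to 0.09). Ifi27l2a and Ifi203 together made up 47.6% (WT), 50.1% (KO), 47.8% (NCD) and 53.1% (HFD) of the member UMIs. The remaining 29 members summed to 738 CPM for NCD and 915 for HFD, a log2 ratio of 0.31 (0.28 to 0.34), and to 664 CPM for WT and 660 for KO, a log2 ratio of -0.01 (-0.05 to 0.03). Without those 2 abundant members the sums of KO and WT did not differ beyond counting error, whereas single members did, in both directions.

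A member was counted as higher or lower at a 1.5-fold difference or more and at least 5 CPM in the higher condition, a threshold on size without any test. In HFD against NCD, 26 members reached 5 CPM, of which 11 were higher, 2 lower and 13 closer to equal. Among all 10024 genes at 5 CPM, 12.4% were higher and 9.4% were lower. The median log2 ratio of the members was 0.50, and that of all genes was 0.08. In KO against WT, 23 members reached 5 CPM, of which 1 was higher and none lower, beside 1.77% of all genes higher and 1.32% lower. The median was 0.06 for the members and 0.00 for all genes. The counting interval lay above equal levels for 20 members in HFD against NCD and for 4 in KO against WT, and below for 5 and 2.

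**Figure D1:**
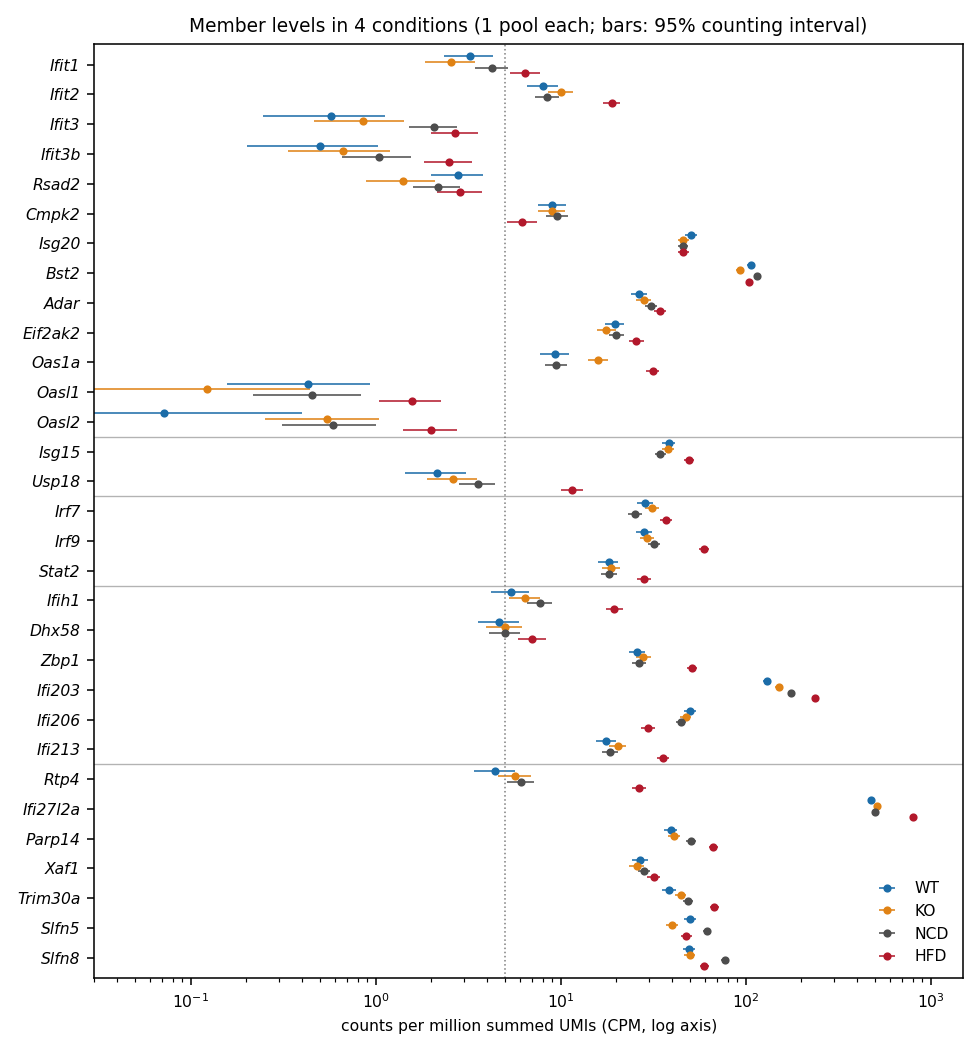
Levels of the 31 members in CPM on a log axis for WT, KO, NCD and HFD, 1 pooled sample each, ordered by role with grey lines between the roles; bars are 95% counting intervals and the dotted line marks 5 CPM. HFD points lie to the right of the NCD points for Oas1a, Usp18, Irf9, Ifih1, Zbp1, Ifi213, Rtp4 and Ifi27l2a, and to the left for Cmpk2 and Ifi206.

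Among effectors that act on viral RNA, capsids or nucleotides, 8 of 13 members reached 5 CPM in the diet experiment. Of these 8, 3 were higher and 1 lower in HFD, beside 12.4% and 9.4% of all genes. Oas1a makes the oligoadenylates that activate RNase L. Its level was 9.41 CPM (8.18 to 10.8) on NCD and 31.4 CPM (28.9 to 34.0) on HFD, 3.33-fold higher, with a log2 ratio of 1.74 (1.51 to 1.97). WT cells had 9.28 CPM (7.75 to 11.02) and KO cells 16.0 CPM (14.1 to 18.1), 1.72-fold higher, with a log2 ratio of 0.78 (0.48 to 1.10). Oas1a was the only member past 1.5-fold in both experiments, and the intervals of the conditions did not overlap in either. The mouse genome holds a cluster of near-identical Oas1 genes, so its reads may be hard to tell from those of its copies.

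Ifit2 encodes an RNA-binding protein with tetratricopeptide repeats. Its level was 7.99 (WT), 10.0 (KO), 8.47 (NCD) and 18.9 CPM (HFD), and the log2 ratio was 1.16 (0.90 to 1.42) for diet and 0.33 (-0.03 to 0.69) for Srebf2. Its relative Ifit1, which binds viral RNA ends that lack the host's cap methylation, stood at 3.21, 2.55, 4.23 and 6.42 CPM in the same order, with a diet log2 ratio of 0.60 (0.20 to 1.01). A single cell held 24.4% of the WT and 13.8% of the NCD UMIs of Ifit1, and its diet ratio was -0.15 among cells with a Foxp3 UMI. Cmpk2, a mitochondrial nucleotide kinase, was lower in HFD, at 8.99 (WT), 8.94 (KO), 9.55 (NCD) and 6.20 CPM (HFD) and a diet log2 ratio of -0.62 (-0.96 to -0.29). Cmpk2 was the only effector counted as lower.

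The other 4 effectors at 20 CPM or more differed little. Bst2, the tetherin that holds budding virions at the cell surface, stood at 107 (WT), 93.7 (KO), 115 (NCD) and 105 CPM (HFD). Its log2 ratios were -0.19 (-0.29 to -0.08) for Srebf2 and -0.14 (-0.22 to -0.05) for diet. Isg20, an exonuclease that degrades single-stranded RNA, stood at 50.7, 46.0, 45.9 and 46.0 CPM, and its diet log2 ratio of 0.00 (-0.13 to 0.14) turned negative when library scaling factors were used. Neither gene came near 1.5-fold.

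Adar edits adenosines in double-stranded RNA. It stood at 26.6 (WT), 28.1 (KO), 30.7 (NCD) and 34.5 CPM (HFD), with a diet log2 ratio of 0.17 (0.01 to 0.33). Eif2ak2, the kinase PKR that halts translation on double-stranded RNA, stood at 19.6, 17.6, 20 and 25.6 CPM, with a diet log2 ratio of 0.36 (0.17 to 0.55). Both were closer to equal levels than 1.5-fold. The 5 effectors under 5 CPM in all conditions, Ifit3, Ifit3b, Rsad2, Oasl1 and Oasl2, had between 1 and 53 UMIs per condition and are not read as levels.

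In the ISG15 system both members had diet intervals above equal levels over all cells. Isg15 encodes a ubiquitin-like protein that is attached to new proteins, and stood at 38.3 (WT), 38.0 (KO), 34.6 (NCD) and 49.5 CPM (HFD). The diet log2 ratio was 0.52 (0.38 to 0.66), under 1.5-fold. Usp18, which removes ISG15 and blocks the interferon receptor, stood at 2.14, 2.62, 3.56 and 11.5 CPM in the same order. It was 3.23-fold higher in HFD than in NCD, with a log2 ratio of 1.69 (1.32 to 2.09), and under 5 CPM in both conditions of the Srebf2 experiment. With the HFD cells weighted to the shares of NCD UMIs in cells with and without an Il1rl1 UMI, the diet log2 ratio of Usp18 was 0.64 and that of Isg15 0.59. In cells with an Il1rl1 UMI, Usp18 stayed under 5 CPM, with a ratio of 0.55 (-0.42 to 1.37), and Isg15 was past 1.5-fold, with a ratio of 0.65 (0.41 to 0.88).

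All 3 transcription factors among the members had diet intervals above equal levels over all cells. Of these, 2 were past 1.5-fold, beside 12.4% of all genes higher. Irf9, the DNA-binding part of the STAT complex, stood at 28.2 (WT), 29.4 (KO), 31.9 (NCD) and 59.5 CPM (HFD), a diet log2 ratio of 0.90 (0.77 to 1.04). Stat2 stood at 18.1, 18.7, 18.3 and 28.3 CPM, a ratio of 0.63 (0.44 to 0.82). Irf7, which drives the genes of type I interferons, stood at 28.6, 31.1, 25.3 and 37.0 CPM, a ratio of 0.55 (0.39 to 0.71). With the HFD cells weighted to the Il1rl1 make-up of NCD, the diet ratios were 0.38 (Irf9), 0.45 (Stat2) and 0.22 (Irf7), none past 1.5-fold. By class, none of the 3 was higher in Il1rl1-positive cells and 1 was in zero cells. In KO against WT the log2 ratios of these 3 genes were 0.06, 0.04 and 0.12, and each interval held equal levels.

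Of the 6 sensors of foreign nucleic acid, 3 were higher and 1 lower in HFD, beside 12.4% and 9.4% of all genes. In Il1rl1-positive cells 3 of 6 were higher and none lower, beside 12.2% and 7.03% of all genes. In zero cells 1 of 6 was higher and none lower, beside 7.74% and 8.73%. Ifih1, the cytosolic sensor MDA5 of long double-stranded RNA, stood at 5.35 (WT), 6.38 (KO), 7.70 (NCD) and 19.5 CPM (HFD), a diet log2 ratio of 1.33 (1.07 to 1.61). Zbp1, a sensor of Z-form nucleic acid that can start necroptosis, stood at 25.9, 28.0, 26.5 and 51.5 CPM, a ratio of 0.95 (0.81 to 1.11). Dhx58, a helicase of the RIG-I family, stood at 4.64, 4.99, 5.00 and 7.01 CPM, a ratio of 0.49 (0.11 to 0.87). The intervals of NCD and HFD did not overlap for Ifih1 and Zbp1, and overlapped for Dhx58.

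The DNA-binding PYHIN genes Ifi203, Ifi206 and Ifi213 are neighbours on chromosome 1 and differed from each other. Ifi213 stood at 17.6 (WT), 20.3 (KO), 18.6 (NCD) and 35.9 CPM (HFD), a diet log2 ratio of 0.95 (0.77 to 1.13). Ifi206 stood at 49.9, 47.5, 44.5 and 29.6 CPM, a ratio of -0.59 (-0.74 to -0.44). Ifi203 stood at 130, 151, 177 and 237 CPM, a ratio of 0.42 (0.36 to 0.48). Ifi213 and Ifi206 thus lay on opposite sides of equal levels in HFD although their start-site windows share the 135-base run and the same core shown above. The likeness of their transcripts was not measured. Reads of close copies may be hard to assign to 1 gene, so these levels are uncertain.

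The remaining 7 members held the largest diet ratio of the list. Rtp4, a receptor-transporting protein, had 4.42 CPM (3.39 to 5.67) for WT, 5.66 (4.57 to 6.93) for KO, 6.08 (5.10 to 7.197) for NCD and 26.5 (24.2 to 29.0) for HFD. It was 4.35-fold higher in HFD than in NCD, a log2 ratio of 2.12 (1.85 to 2.41), beside 0.35 (-0.13 to 0.84) for KO against WT. Ifi27l2a, a small membrane protein and the member with the most UMIs, stood at 474, 512, 499 and 799 CPM in the same order, a diet log2 ratio of 0.68 (0.64 to 0.71) and a Srebf2 ratio of 0.11 (0.07 to 0.16). For both genes the intervals of NCD and HFD lay apart.

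Parp14, an ADP-ribosyltransferase, stood at 39.3 (WT), 41.0 (KO), 50.7 (NCD) and 66.7 CPM (HFD), a diet log2 ratio of 0.39 (0.28 to 0.51). Trim30a, a regulator of Toll-like receptor signalling, stood at 38.7, 44.5, 48.6 and 67.7 CPM, a ratio of 0.48 (0.36 to 0.60). Xaf1, a partner of the apoptosis inhibitor XIAP, stood at 26.8, 25.8, 28.2 and 31.8 CPM, a ratio of 0.17 (0.00 to 0.33). None of these reached 1.5-fold, and the Xaf1 ratio was -0.05 among cells with a Foxp3 UMI.

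The Schlafen genes Slfn5 and Slfn8, which belong to a family tied to T cell quiescence and tRNA cleavage, lay on the other side of equal levels. Slfn5 stood at 49.8 (WT), 40.0 (KO), 61.8 (NCD) and 47.8 CPM (HFD), with log2 ratios of -0.31 (-0.47 to -0.16) for Srebf2 and -0.37 (-0.49 to -0.25) for diet. Slfn8 stood at 49.5, 49.9, 76.9 and 59.8 CPM, with ratios of 0.01 (-0.14 to 0.16) and -0.36 (-0.47 to -0.25). Both were thus below NCD in HFD by less than 1.5-fold.

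**Figure D2:**
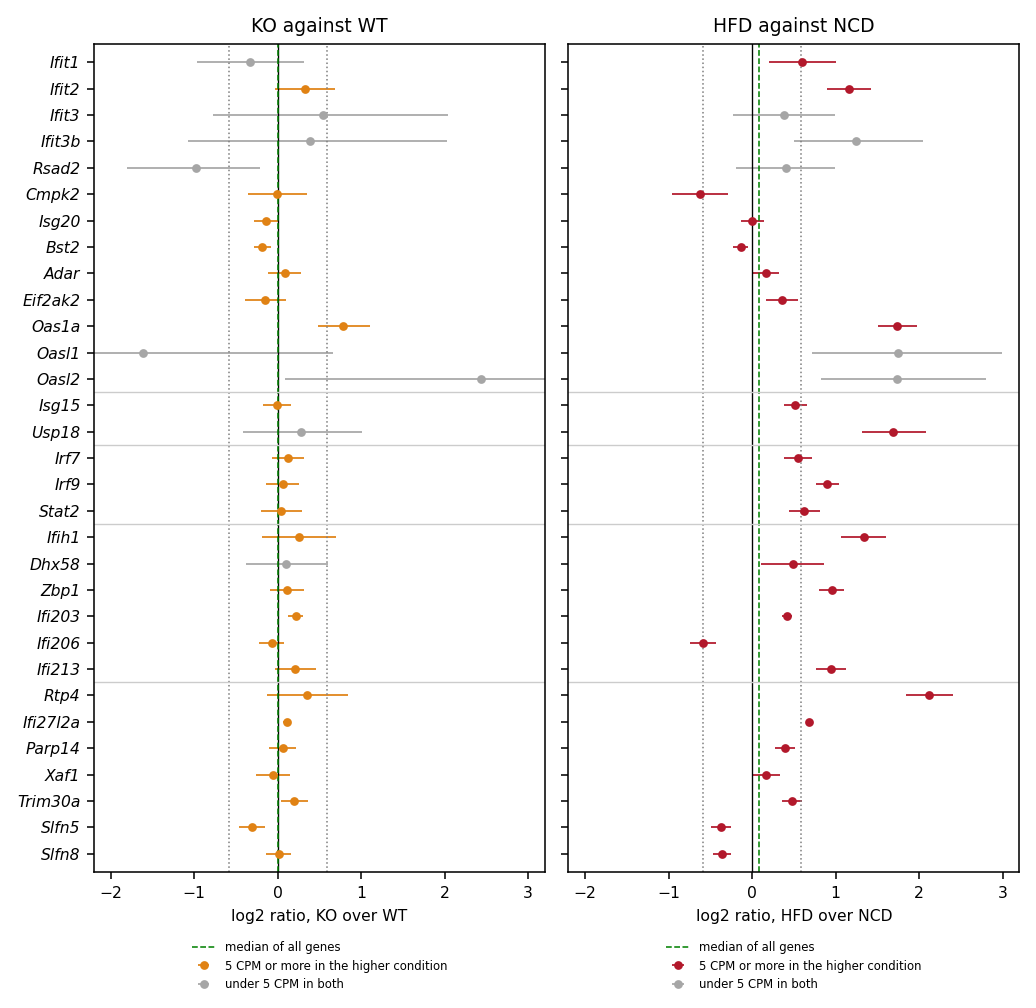
Log2 ratios of the 31 members for KO over WT (left) and HFD over NCD (right) with 95% counting intervals; grey points are under 5 CPM in both conditions, dotted lines mark 1.5-fold and the dashed green line the median of all genes. Of the coloured points, 1 lies past 1.5-fold on the left, and 11 lie past it upward and 2 downward on the right.

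Ifit2, Oas1a, Usp18, Ifih1, Zbp1, Ifi213 and Rtp4 were the 7 of the 11 higher members that stayed past 1.5-fold in HFD in each of the 12 other settings tried per gene, and neither Cmpk2 nor Ifi206 stayed past it in all of them. Scaling factors of edgeR and DESeq2 shifted all log2 ratios of HFD against NCD by -0.10 and -0.12, which left 8 members higher and 2 lower with each. In KO against WT, Oas1a stayed past 1.5-fold in all 12.

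Since Il1rl1-positive cells were far fewer in HFD, the members were also described in cells with and without an Il1rl1 UMI. The summed level of the members was lower in the positive cells of every condition, and single members were not all lower. In positive and zero cells it was 1194 and 1495 CPM (WT), 1210 and 1532 (KO), 1373 and 1615 (NCD), and 1718 and 2010 (HFD), with log2 ratios of -0.32, -0.34, -0.23 and -0.23. By the 1.5-fold rule 10 (WT), 9 (KO), 7 (NCD) and 4 (HFD) members were lower in positive cells, and none was higher. Within 1.5-fold, the counting interval lay above equal levels for Isg20 in KO (51.2 CPM in positive and 36.6 in zero cells) and NCD (48.1 and 34.6), Eif2ak2 in KO (19.5 and 14.2) and Slfn5 in NCD (64.6 and 47.3). Of all genes at 5 CPM, 8.99%, 9.74%, 11.2% and 5.68% were lower, and 5.83%, 5.91%, 6.37% and 7.34% were higher. Ifit2 and Rtp4 were lower in positive cells in all 4 conditions. Rtp4 had 2.37 CPM in positive and 10.7 in zero cells of WT, 2.44 and 11.6 for KO, 4.27 and 15.1 for NCD, and 15.0 and 29.5 for HFD. Median depth differed with the class, at 3802, 3992, 4221 and 3772 UMIs in positive and 3046, 3166, 3103 and 3091 in zero cells, and its part in the result was not tested. With scaling factors the summed log2 ratio in NCD was -0.06 (edgeR) and -0.07 (DESeq2).

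The summed level was higher in HFD than in NCD in both classes, by less than over all cells. In Il1rl1-positive cells it was 0.32 (0.28 to 0.36), from 1373 CPM in NCD to 1718 in HFD, and in zero cells 0.32 (0.28 to 0.36), from 1615 to 2010 CPM. In cells thinned to equal depth these ratios were 0.15 in positive and 0.43 in zero cells, with the classes set again after thinning. These classes hold other cells: 3086 positive and 1566 zero cells for NCD, beside 3855 and 1083 before thinning. For HFD they were 540 and 3261, beside 793 and 3719. In the positive class, cells which express Il1rl1 and cells with a background UMI cannot be told apart, and the background was not measured. With the HFD cells weighted to the Il1rl1 make-up of NCD, the log2 ratio over all cells was 0.32, beside 0.46 without weighting. In positive cells 7 of 24 members were higher and 1 lower, beside 12.2% and 7.03% of all genes. In zero cells 5 of 26 were higher and none lower, beside 7.74% and 8.73% of all genes. The median log2 ratio was 0.32 for the members and 0.08 for all genes in positive cells, and 0.26 and -0.03 in zero cells. Markers of other cells differed within the classes too. From NCD to HFD, red cell markers stood at 104 and 2.62 CPM in positive and 6.22 and 364 CPM in zero cells, and CD8 T or NK cell markers at 14.5 and 20.5 CPM in positive and 59.2 and 19.2 CPM in zero cells. Resting lymphoid T cell markers stood at 504 and 647 CPM in positive and 907 and 1398 CPM in zero cells. The part of these markers in the class ratios was not tested.

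Single members differed in how far they did so in each class. Oas1a stood at 8.81 CPM in NCD and 30.2 in HFD positive cells, a log2 ratio of 1.78 (1.42 to 2.13), and at 12.4 and 31.7 CPM in zero cells, a ratio of 1.34 (0.91 to 1.82). Ifih1 stood at 6.0 and 19.95 CPM in positive cells, a ratio of 1.74 (1.29 to 2.17), and at 16.2 and 19.3 CPM in zero cells, a ratio of 0.24 (-0.15 to 0.68). Irf9 stood at 30.6 and 36.8 CPM in positive cells, a ratio of 0.27 (-0.02 to 0.53), and at 37.8 and 65.4 CPM in zero cells, a ratio of 0.79 (0.53 to 1.06). The counting intervals of the 2 classes overlapped for Oas1a, did not overlap for Ifih1 and met at 0.53 for Irf9. The difference between the classes was not tested. Rtp4 (1.81 and 0.95) and Zbp1 (0.69 and 0.62) were higher in HFD in both classes.

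In KO against WT the summed log2 ratio was 0.02 (-0.02 to 0.05) in positive and 0.04 (-0.01 to 0.09) in zero cells. In positive cells 1 of 22 members was higher and none lower, beside 1.74% and 1.57% of all genes. Oas1a was that member, at 6.92 CPM in WT and 12.2 in KO, a log2 ratio of 0.81 (0.39 to 1.252). In zero cells none of 26 was higher and 2 were lower, beside 3.88% and 3.9% of all genes. These 2 were Ifit1, at 7.21 CPM in WT and 4.66 in KO, and Usp18, at 5.48 and 3.45 CPM, and both intervals held equal levels.

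**Figure D3:**
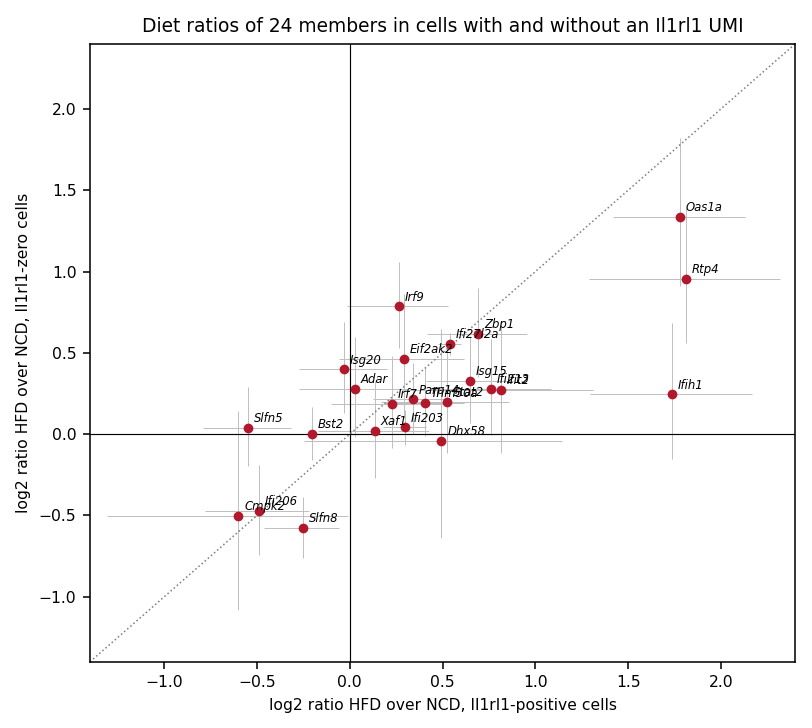
Log2 ratio of HFD over NCD in Il1rl1-positive cells (x axis) against Il1rl1-zero cells (y axis) for the 24 members at 5 CPM or more in both classes; grey bars are 95% counting intervals and the dotted diagonal marks equal ratios. Oas1a and Rtp4 lie far out in both classes, Ifih1 (1.74 and 0.24) lies below the diagonal and Irf9 (0.27 and 0.79) above it.

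Per cell, the members were read after each cell was thinned to 2000 UMIs, which left out 307 (WT), 311 (KO), 286 (NCD) and 711 (HFD) cells with fewer. UMIs of at least 5 different members were found in 3.96% (3.31 to 4.70) of WT and 4.25% (3.62 to 4.96) of KO cells. The share was 5.44% (4.80 to 6.13) for NCD and 12.3% (11.3 to 13.4) for HFD cells. Without thinning these shares were 21.4%, 22.4%, 30.3% and 36.4%. HFD was thus above NCD either way, and the thinned intervals of WT and KO overlapped. At least 1 member was found in 86.1%, 87.2%, 88.9% and 92.8% of thinned cells, and in 93.8%, 93.8%, 96.4% and 95.5% of cells before thinning, where HFD was below NCD. Among thinned HFD cells, 5 or more members were found in 6.48% (4.56 to 8.90) of those that kept an Il1rl1 UMI and 13.3% (12.1 to 14.5) of those without.

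A small set of cells carried many members at once. At least 10 members were found in 5 of 3183 thinned WT cells (0.157%, 0.051 to 0.366) and 4 of 3645 KO cells (0.110%, 0.030 to 0.281). They were found in 17 of 4652 NCD cells (0.365%, 0.213 to 0.585) and 22 of 3801 HFD cells (0.579%, 0.363 to 0.875). The most members in 1 cell were 19, 14, 18 and 21. The intervals of WT and KO overlapped, and so did those of NCD and HFD. The 1% of cells with the most member UMIs held 8.91% (WT), 8.24% (KO), 9.51% (NCD) and 9.17% (HFD) of them.

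Cells with a UMI of some rare members held more of the other members, and the genes named here were chosen after their values were seen. In thinned HFD cells, the 51 cells with an Ifit1 UMI held a mean of 6.28 other members, beside 2.58 in cells without. The 24 cells with Ifit3 held 7.88 others, beside 2.60, and the 19 with Rsad2, which makes a chain-ending nucleotide, held 6.53, beside 2.62. Of the abundant members, Ifi27l2a was found in 2254 cells with a mean of 2.22 others, beside 1.80 in cells without. Rtp4 lay between them, with 191 cells and 4.19 others, beside 2.51. In NCD the 19 cells with Ifit1 held 8.58 others, beside 2.05, so this was seen on both diets. The excess of a gene was not the same in every condition. The 12 WT cells with Rsad2 held 2.42 others, beside 1.90. For Oasl2 it was 2.5 in 4 NCD cells, beside 2.08, and 5 in 19 HFD cells, beside 2.625. Most HFD cells with Ifit1 held fewer than 10 members, since only 22 HFD cells reached that number.

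**Figure D4:**
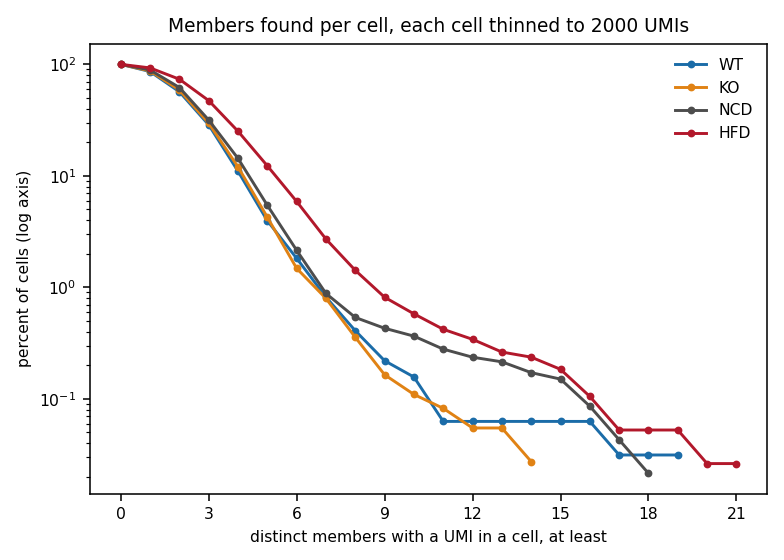
Percent of cells (log axis) in which at least the given number of different members had a UMI, each cell thinned to 2000 UMIs, for WT, KO, NCD and HFD. The HFD line lies above the NCD line, with 12.3% beside 5.44% of cells at 5 members, and KO and WT stand at 4.25% and 3.96% there.

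The rest of the pathway was read from lists of genes outside the members. Of 19 interferon ligands only Ifng, which encodes interferon gamma, reached 5 CPM, at 35.5 (WT), 52.1 (KO), 31.5 (NCD) and 23.1 CPM (HFD), with log2 ratios of 0.55 (0.39 to 0.71) and -0.45 (-0.63 to -0.27). By class, KO over WT was 1.38 in Il1rl1-positive and -0.19 in zero cells, and HFD over NCD was 0.36 in positive and -2.14 in zero cells. None of the 8 receptor and kinase genes at 5 CPM was past 1.5-fold in either experiment. Of all genes at 5 CPM, 12.4% were higher and 9.4% lower in HFD, and 1.77% higher and 1.32% lower in KO. Ifnar1 stood at 92.2, 101, 76.7 and 86.3 CPM and Ifnar2 at 78.8, 81.1, 77.7 and 104 CPM.

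Among 7 feedback inhibitors 3 were higher in HFD and none lower: Ptpn6 (1.32), Socs3 (1.21) and Ptpn1 (0.66), whereas Socs1 was at -0.53. Of 9 genes of upstream nucleic acid sensing, Tmem173, which encodes STING, and the kinase gene Ikbke were higher, with log2 ratios of 0.74 and 1.20. These counts stand beside 12.4% of all genes higher and 9.4% lower, and the lists are short. In Il1rl1-positive cells 2 of 7 inhibitors and 2 of 9 sensing genes were higher, beside 12.2% of all genes. In zero cells 1 of 7 inhibitors and none of 9 sensing genes were higher, beside 7.74%.

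Interferon-inducible GTPases, which attack the vacuoles of intracellular microbes, differed most between the diets. Of 16 genes 11 were higher and none lower, with a median log2 ratio of 1.00, beside 12.4% of all genes higher and 9.4% lower. Iigp1 stood at 6.17 CPM in NCD and 65.9 in HFD, a log2 ratio of 3.41 (3.16 to 3.68), and Tgtp1 at 5.32 and 37.0, a ratio of 2.80 (2.52 to 3.10). Among 39 other interferon-stimulated genes 9 were higher and none lower, with a median of 0.23, led by Gm4951 (3.12), Ifitm2 (1.82), Oas3 (1.33) and Epsti1 (1.09). In Il1rl1-positive cells 11 of 16 GTPases were higher and 1 lower, and 6 of 38 other genes higher and 1 lower. All genes there were 12.2% higher and 7.03% lower. In zero cells 7 of 16 GTPases were higher and none lower, and 4 of 40 other genes higher and 1 lower. All genes there were 7.74% higher and 8.73% lower. Of 10 class I antigen processing genes 2 were higher, Psmb10 (1.22) and Psmb9 (0.63), and H2-D1 was lower (-0.82). In KO against WT the same lists held 1 gene past 1.5-fold, beside 1.77% of all genes higher and 1.32% lower. It was Ifitm2, at 13.6 CPM in WT and 20.5 in KO, a log2 ratio of 0.59 (0.33 to 0.85). At 5 CPM there were 37 other interferon-stimulated genes, 15 GTPases and 10 class I genes.

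**Figure D5:**
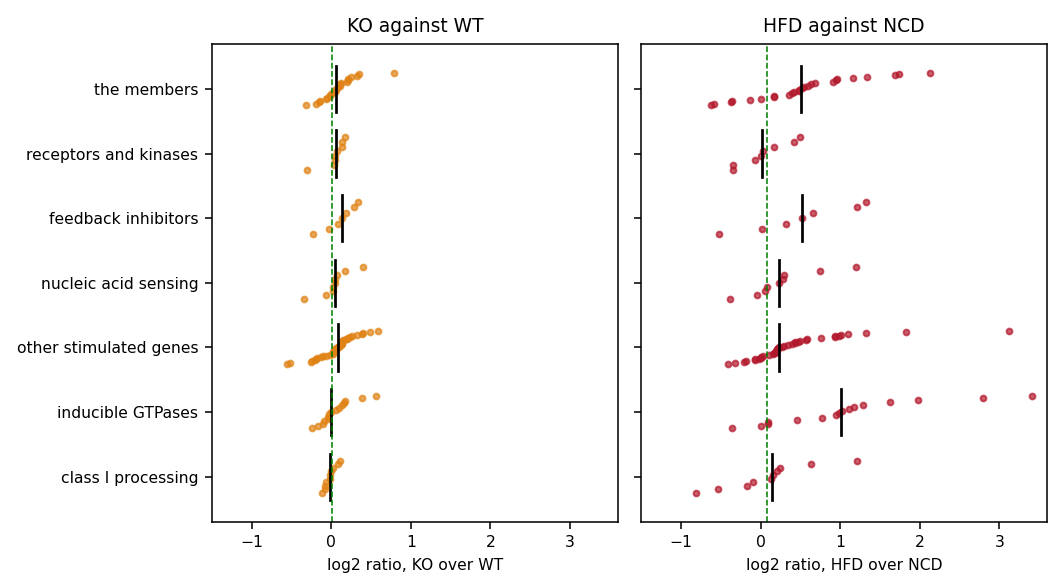
Log2 ratios of the members and of 6 lists of related genes at 5 CPM or more, for KO over WT (left) and HFD over NCD (right); each point is a gene, black bars are list medians and the dashed green line is the median of all genes. On the right the GTPases have the highest median (1.00), followed by the feedback inhibitors (0.52) and the members (0.50), and receptors and kinases lie near 0.02; on the left all medians lie between -0.02 and 0.13.

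Markers of other cells and states also differed with the conditions. The 6 markers of resting lymphoid T cells summed to 571 CPM in NCD and 1244 in HFD, 5 stroma or adipocyte markers to 25.7 and 114, 4 red cell markers to 87.4 and 290, and 9 genes of handling and heat shock to 12537.7 and 4471. In WT and KO the same lists stood at 565 and 642, 40.5 and 55.9, 461 and 82.4, and 13552.5 and 11624.7 CPM. B cell markers were between 8.87 and 12.6 CPM and macrophage markers between 2.30 and 2.71 CPM in all 4 conditions, with Cd79a, Lyz2 and Cd8a at 0 by the choice of cells. Plasmacytoid dendritic cell markers, from a cell type known for making type I interferon, summed to 50.8 (WT), 37.3 (KO), 34.8 (NCD) and 37.7 CPM (HFD), with 3 of 5 at 0 in both diets. The diet sums were thus Ccr9 (17.0 CPM in NCD and 3.13 in HFD) and Pacsin1 (17.8 and 34.6), which differed in opposite directions. Siglech had 1 UMI each in WT and KO and 0 in both diets, so the similar sums do not show a similar presence of these cells. CD8 T or NK cell markers summed to 17.3, 19.0, 22.0 and 19.5 CPM, among them Ncr1 with 116 UMIs for NCD and 0 for HFD. The part of these differences in the member results was not tested.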

How the data were processed

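Per the file headers, the authors deposited 1 matrix of raw UMI counts for each of 2 pools, in which hashtags are rows beside the genes. The headers name Cell Ranger 7.1.0 (Srebf2 pool) and 7.0.1 (diet pool), and per the submitters' processing notes 7.0.1 and mm10 were used. Further filters by the authors are not stated there.

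Barcodes (9036 and 11456) were kept with 500 genes or more, a mitochondrial share under 10%, 90% or more of hashtag counts from 1 of the pool's 2 hashtags, and no UMI of Cd79a, Lyz2 or Cd8a, a rule that left out 186 WT, 153 KO, 579 NCD and 297 HFD droplets for the last reason. The hashtag rule leaves out barcodes with a clear mix of both hashtags. Uneven mixed doublets may pass it, and doublets within a condition remain. No clusters were made and no deposited annotation was used. Counts were summed per condition and divided by the summed total (CPM), which is not per transcript length. Ratios have 0.5 counts added to each sum and exact intervals from the binomial split, levels exact Poisson and shares exact Clopper-Pearson intervals, at 95%. Each condition was 1 pool, so no p-value was computed. Members at 20 CPM or more in any condition were named, and others where past 1.5-fold at 5 CPM; exceptions are stated. The calculation of the ratios was checked on simulated counts. These were drawn with counting error alone, so they say nothing about the spread between cells, mice or sorts. Factors of edgeR 4.0.16 and DESeq2 1.42.0 served as alternative scalings only. Python 3.11.15, numpy 2.4.6, scipy 1.17.1 and R 4.3.3 were used. The members, the lists and the rules were chosen with earlier results of these data known. A list of further signalling factors is not reported here.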

Additional observations from a re-analysis of the deposited data

How the results depend on the processing

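No paired analysis was possible because each condition was a single pool with no replicate numbers to pair, and no replicate could be left out for the same reason. Depth limits the rare members, and doublets within a condition remain. Adding 1 count, a higher minimum of genes per cell, a mitochondrial share under 5% and leaving out the top cell of each member left each summed log2 ratio within the counting interval of the reported value and each count within 1.5 times the reported one. Members higher in HFD went from 11 to 10 with the higher minimum of genes, and leaving out the top cell of each member took KO against WT in zero cells from 0.04 to 0.07 and positive against zero cells of WT from -0.32 to -0.28. The cause was not tested for any change below unless it follows from the setting.

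For HFD against NCD the summed log2 ratio of 0.46 became 0.50 with other-cell droplets kept, 0.37 with edgeR and 0.35 with DESeq2 factors, 0.49 with thinned cells and 0.32 with the Il1rl1 make-up of NCD. In Il1rl1-positive cells 0.32 became 0.38 with those droplets, 0.38 with cells holding a Foxp3 UMI, 0.21 with each set of factors, 0.25 with equally weighted cells and 0.15 with thinned cells. In Il1rl1-zero cells 0.32 became 0.42 with those droplets, 0.38 and 0.37 with the factors and 0.43 with thinned cells. Thinned cells were classed by the Il1rl1 UMIs left after thinning, here and below. Of the members, 18 were higher at a fold threshold below 1.5, 5 at 2-fold and 7 at 20 CPM, beside 11. Lower members, 2 in the report, were 4 at that smaller threshold, 1 with 95% own hashtag or at 20 CPM, and 0 at 2-fold, with those droplets kept, with equal weights and with thinned cells. Ifit1 turned to -0.15 with cells holding a Foxp3 UMI.

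For KO against WT the summed log2 ratio of 0.06 became 0.024 with the Il1rl1 make-up of WT. Higher members were 3 at the smaller threshold, 0 at 2-fold or 20 CPM and 2 with no floor, and lower members were 2 with no floor.

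Positive against zero cells, the summed log2 ratio with edgeR and DESeq2 factors was -0.21 for each in WT, -0.20 for each in KO, and -0.065 and -0.067 in NCD. Thinned cells gave -0.27 in WT and -0.48 in HFD, equal weights -0.40 in KO and -0.33 in HFD, other-cell droplets -0.14 in NCD and -0.19 in HFD, and cells with a Foxp3 UMI -0.17 in HFD.

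Without thinning, 93.8% (WT), 93.8% (KO), 96.4% (NCD) and 95.5% (HFD) of cells had a UMI of any member, and 21.4%, 22.4%, 30.3% and 36.4% had UMIs of 5 or more members.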
